A study of Mus musculus with 6 samples.

Results

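The MHC class I antigen presentation genes described here are 10 of the 23951 genes in the expression table, chosen by symbol. They are the heavy chains H2-K1, H2-D1 and H2-T23, the light chain B2m, the peptide transporter genes Tap1 and Tap2, the loading bridge Tapbp, the immunoproteasome subunits Psmb8 and Psmb9, and the transactivator Nlrc5. RNA was sequenced from 3 untreated mouse melanoma lines in culture, with 2 libraries per line. B16-F1, of low metastatic potential, came from a cell repository. B16-F1R2 was derived from a lymph node metastasis, and B16-F1R2L from a lung metastasis that itself descended from a lymph node metastasis. Both variant lines came from another laboratory, and the origin of the cells cannot be told apart from the line. All 3 lines grew in the same high-glucose DMEM with fetal bovine serum. Nothing in the labels tells if libraries of one line were separate cultures, so each p-value measures only the spread between these libraries, which may be technical.

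Class I molecules show fragments of the cell's own proteins to cytotoxic T cells and NK cells. Proteasomes cut the proteins, the TAP transporter carries the peptides into the endoplasmic reticulum, and tapasin, the product of Tapbp, holds empty class I molecules at the transporter until they are loaded. Interferons raise most of these genes together, and NLRC5 drives class I promoters together with the RFX, CREB and NF-Y factors. B16 melanoma cells are known for low class I levels that interferon-gamma can raise.

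Values are FPKM, read counts scaled to transcript length and to 1000000 mapped reads, which can be compared between genes per length. The depth, estimated from the lowest values, was 12400000 to 14800000 reads per library. Differences are log2 fold changes on the scale log2(FPKM + 0.1), tested with limma over the 11379 genes that reached 1 FPKM or more in 2 or more libraries. Adjusted p-values are Benjamini-Hochberg values over all of these genes, and a gene is called higher or lower at an adjusted p under 0.05. Replicate libraries differed by a median of 0.0669 to 0.0951 on the log2 scale. All 7 melanocyte markers were found in every library, from 14.2 FPKM for Tyr to 4440 for Mlana, though 6 of them fell in B16-F1R2. In bulk RNA, fewer cells that use a gene and less RNA of it per cell cannot be told apart.

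The promoters of the members are shown first, because the members of one pathway are often driven through shared promoter elements. RefSeq sequences of GRCm38.p6 were at hand for 8 of the 10 members, each covering 250 bases before the start of transcription; Tap2 and Nlrc5 had no entry. In the lines below, capitals mark matches to an IRF element (AANNGAAA), an NF-kB site, a CRE half-site (TGACG) or a CCAAT box (CCAAT), searched on both strands. Sequences run 5′ to 3′ along the gene. H2-K1 lies on the minus strand at chr17:34000334-34000464, H2-D1 on the plus strand at chr17:35262917-35263051 and B2m on the plus strand at chr2:122147544-122147644.
H2-K1: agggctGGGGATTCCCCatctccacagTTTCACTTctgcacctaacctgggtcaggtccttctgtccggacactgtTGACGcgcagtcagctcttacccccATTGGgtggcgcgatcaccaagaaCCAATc
H2-D1: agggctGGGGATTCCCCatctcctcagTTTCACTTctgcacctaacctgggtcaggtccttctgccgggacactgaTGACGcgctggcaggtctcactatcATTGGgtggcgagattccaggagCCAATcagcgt
B2m: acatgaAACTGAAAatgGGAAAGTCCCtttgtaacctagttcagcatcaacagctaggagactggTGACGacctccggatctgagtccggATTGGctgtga

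These 3 promoters held all 4 motifs, as did 25 of the 27025 mouse promoters in the same table (0.0925%). Singly the motifs were common: 21.6% of all promoters held the IRF element, 17.9% the CRE half-site, 34.5% the CCAAT box and 7.01% the NF-kB site. The order of elements was the same in H2-K1 and H2-D1, NF-kB site, IRF element, CRE half-site and CCAAT box, whereas in B2m the IRF element preceded the NF-kB site. Over the first 60 aligned bases from the NF-kB site, H2-K1 and H2-D1 were 96.7% identical, and over all 125 aligned bases without gaps they were 80.8% identical. The NF-kB site of both heavy chains met the NF-kB consensus on either strand and was therefore matched on both.

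The other promoters held fewer of these motifs. Those of H2-T23 (minus strand, chr17:36032743-36032831), Tap1 (plus strand, chr17:34187440-34187504) and Tapbp (plus strand, chr17:33919228-33919323) are shown as a member with IRF elements but no NF-kB site, a member with a CRE half-site, and the member that was lower in the variants.
H2-T23: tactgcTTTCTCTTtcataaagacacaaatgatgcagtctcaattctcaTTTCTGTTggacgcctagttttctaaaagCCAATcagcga
Tap1: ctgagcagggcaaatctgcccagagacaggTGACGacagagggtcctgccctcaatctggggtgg
Tapbp: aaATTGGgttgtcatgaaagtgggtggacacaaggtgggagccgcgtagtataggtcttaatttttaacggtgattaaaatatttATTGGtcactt

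In RefSeq (GRCm38.p6) the Tap1 and Psmb9 genes are transcribed away from each other from starts 226 bases apart, so their windows overlap. The CRE half-site printed for Tap1 (chr17:34187470-34187474) lies in both windows, and so does a CCAAT box at chr17:34187334-34187338, outside the stretch printed. Tapbp held 2 CCAAT boxes and none of the other motifs, and Psmb8 held no match at all. A match describes these letters in this window and says nothing on whether a factor binds there.

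In B16-F1R2, 8 of the 10 members were higher than in B16-F1, 1 was lower (Tapbp) and 1 was not tested (H2-T23). Of all tested genes, 28.2% were called higher and 27.2% lower in this comparison. In B16-F1R2L against B16-F1 the same count was 8 higher, 1 lower and 1 not tested, where 29.5% of all genes were called higher and 27.1% lower. Both comparisons use the same B16-F1 libraries. Tap2, Psmb8, Psmb9 and Nlrc5 were under 1 FPKM in both B16-F1 libraries and passed the filter only through the variant lines, so they had to differ.

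**Figure D1:**
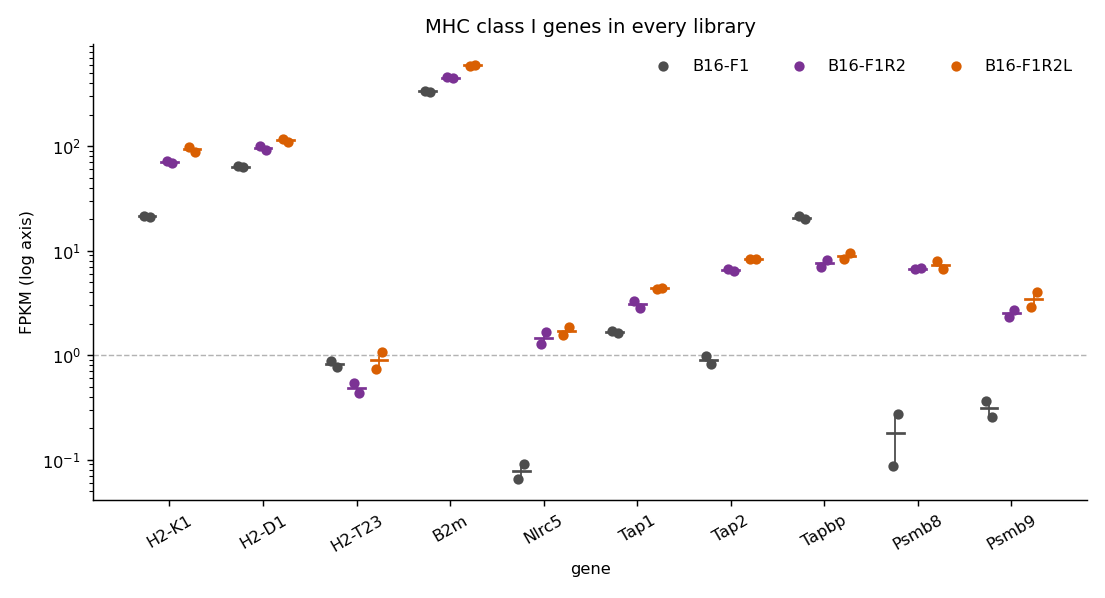
FPKM (log axis) of the 10 class I genes in every library: points are the 2 libraries of a line, short bars their mean, and the dashed line is 1 FPKM. B2m is the highest member at 330 to 602 FPKM, Tapbp is the one tested member with its highest values in B16-F1, and Psmb8, Psmb9, Nlrc5 and Tap2 lie under 1 FPKM in B16-F1 alone.

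Among the heavy chains, H2-K1 (chr17:34132962-34137278, minus strand, NCBIM37) encodes the classical K molecule that presents peptides to CD8 T cells. It measured 21.6 and 21.2 FPKM in the libraries of B16-F1, then 71.7 and 68.7 in those of B16-F1R2 as well as 97.9 and 88.8 in those of B16-F1R2L. The 3 lines did not overlap and both variants lay far above B16-F1. The log2 fold change was 1.71 (SE 0.058, adjusted p = 4.4e-06) in B16-F1R2 and 2.12 (adjusted p = 1.9e-06) in B16-F1R2L, which is 3.28 and 4.37 times the B16-F1 mean.

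H2-D1 (chr17:35399675-35404444, plus strand, NCBIM37) encodes the classical D molecule. Its FPKM were 64.0 and 62.6 in B16-F1, where B16-F1R2 had 99.6 and 92.7 while B16-F1R2L had 118 and 109. It was also higher in both variants without overlap, by less than H2-K1. Its log2 fold change was 0.60 (SE 0.057, adjusted p = 0.00025) in B16-F1R2 and 0.84 (adjusted p = 6.1e-05) in B16-F1R2L. The ratio of H2-D1 to H2-K1 was 2.96 in both libraries of B16-F1, compared with 1.39 and 1.35 in B16-F1R2 and with 1.21 and 1.23 in B16-F1R2L. H2-D1 therefore stayed the higher of the pair in all 6 libraries, while the gap between them narrowed.

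H2-T23 (chr17:36166718-36169800, minus strand, NCBIM37) encodes Qa-1, a non-classical molecule read by NK cell receptors. Its FPKM were 0.869 and 0.766 in the libraries of B16-F1, then 0.537 and 0.435 in those of B16-F1R2 as well as 0.729 and 1.06 in those of B16-F1R2L. It reached 1 FPKM in 1 library only and was left out of the test. Without the filter on low values its log2 fold change was -0.65 (SE 0.23, adjusted p = 0.084) in B16-F1R2 and 0.10 (adjusted p = 0.77) in B16-F1R2L. It rested on about 9 to 23 reads per library, and its 95% intervals were accordingly wide, -1.25 to -0.05 in B16-F1R2 and -0.50 to 0.70 in B16-F1R2L.

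Heavy chain genes resemble each other, and the way reads were shared between them was not given in the sources used here. Of the stretches of 50 bases in their exons, 308 of 2986 for H2-K1, 331 of 2647 for H2-D1 and 502 of 3071 for H2-T23 also occur in other genes. The FPKM summed over the 32 H2 heavy chain rows were 107.6 and 109.8 in B16-F1, where B16-F1R2 had 199.8 and 191.7 while B16-F1R2L had 254.1 and 237.5. The sum was thus 1.8 times the B16-F1 mean in B16-F1R2 and 2.26 times in B16-F1R2L. H2-K1 and H2-D1 made up 76.3% to 85.7% of it.

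B2m (chr2:121973422-121978819, plus strand, NCBIM37) encodes beta-2-microglobulin, the light chain without which class I molecules do not reach the surface. It was the most abundant member, at 341 and 330 FPKM in B16-F1, compared with 459 and 446 in B16-F1R2 and with 583 and 602 in B16-F1R2L. The lines again followed each other without overlap. Its log2 fold change was 0.43 (SE 0.045, adjusted p = 0.00038) in B16-F1R2 and 0.82 (adjusted p = 2.7e-05) in B16-F1R2L. None of its stretches of 50 bases occur in another gene, and it lies on chromosome 2, outside the H2 region. Per length, B2m exceeded the summed heavy chains in every library, 3.17 and 3.01 times in the libraries of B16-F1, then 2.29 and 2.32 times in those of B16-F1R2 as well as 2.29 and 2.53 times in those of B16-F1R2L.

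Nlrc5 (chr8:96996663-97051172, plus strand, NCBIM37), the transactivator of class I promoters, measured 0.0646 and 0.0901 FPKM in B16-F1. B16-F1R2 reached 1.29 and 1.65, and B16-F1R2L reached 1.54 and 1.86. The B16-F1 values correspond to about 6 and 8 reads, against about 121 to 191 reads in the variants. Its log2 fold change was 3.14 (SE 0.23, adjusted p = 9.6e-05) in B16-F1R2 and 3.34 (adjusted p = 7.3e-05) in B16-F1R2L. The size depends on the pseudocount, being 1.19 and 1.32 with a pseudocount of 1 and 4.09 and 4.30 with one of 0.01. Nlrc5 passed the filter only through the variant lines, so its calls are no support of their own.

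Tap1 and Tap2 encode the subunits of the peptide transporter. Tap1 (chr17:34324498-34334170, plus strand, NCBIM37) measured 1.71 and 1.63 FPKM in B16-F1, where B16-F1R2 had 3.29 and 2.84 while B16-F1R2L had 4.33 and 4.39. All variant libraries were above both B16-F1 libraries, with a log2 fold change of 0.84 (SE 0.11, adjusted p = 0.0012) in B16-F1R2 and 1.33 (adjusted p = 0.00017) in B16-F1R2L. Tap2 (chr17:34340472-34353266, plus strand, NCBIM37) measured 0.972 and 0.819 FPKM in B16-F1, compared with 6.68 and 6.41 in B16-F1R2 and with 8.39 and 8.38 in B16-F1R2L. Its log2 fold change was 2.74 (SE 0.11, adjusted p = 7.3e-06) in B16-F1R2 and 3.10 (adjusted p = 4.2e-06) in B16-F1R2L. With a pseudocount of 1 it was 2.00 and 2.31, and with one of 0.01 it was 2.86 and 3.22. By FPKM, Tap2 was the lower of the pair in B16-F1 and the higher in every variant library. Of its stretches of 50 bases, 11.6% are shared, mostly with Gm15821, a gene on the opposite strand that overlaps 533 of its exon bases. Whether the counting used strand was not given in the sources used here, so reads of the 2 genes may not be separated.

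Tapbp (chr17:34052844-34066235, plus strand, NCBIM37) went the other way. It measured 21.5 and 19.9 FPKM in the libraries of B16-F1, then 6.995 and 8.21 in those of B16-F1R2 as well as 8.40 and 9.52 in those of B16-F1R2L. The B16-F1 libraries stood above all others. Its log2 fold change was -1.44 (SE 0.10, adjusted p = 7.9e-05) in B16-F1R2 and -1.20 (adjusted p = 0.00016) in B16-F1R2L. B16-F1 thus held 2.73 times the Tapbp level of B16-F1R2. Its nearest tested neighbours, Zbtb22 and Rgl2, were lower as well, with log2 fold changes of -0.82 (adjusted p = 0.00059) and -0.84 (adjusted p = 0.00011) in B16-F1R2. Exons of Tapbp and Zbtb22 overlap by 61 bases on the same strand.

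**Figure D2:**
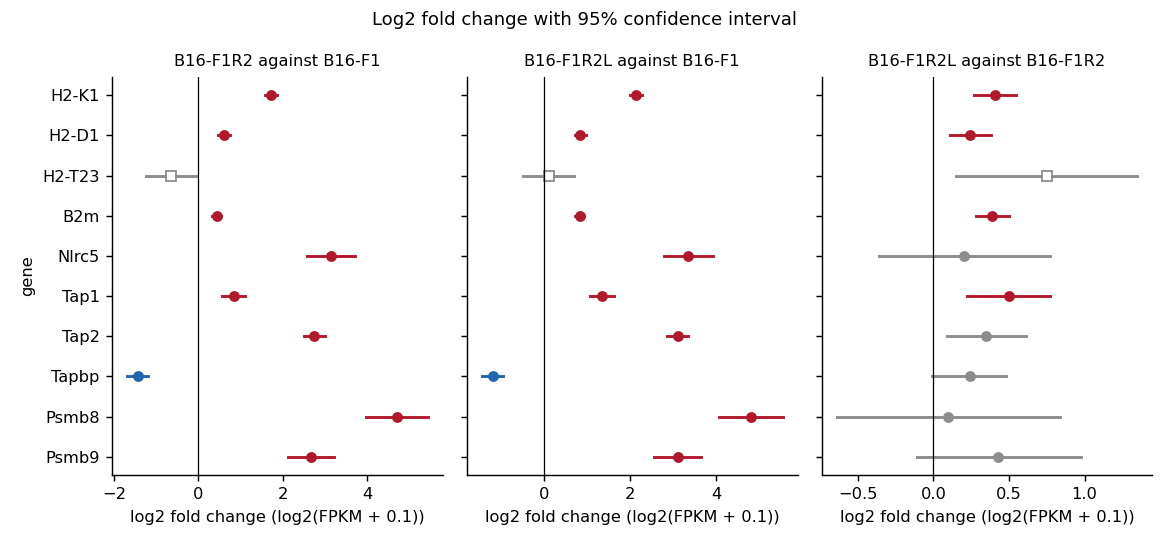
Log2 fold change on the log2(FPKM + 0.1) scale of each member in the 3 comparisons between lines; points are estimates, lines 95% confidence intervals, red called higher, blue called lower and grey not called, and the open squares of H2-T23 come from the fit without a filter. Tapbp alone is called lower against B16-F1, and in B16-F1R2L against B16-F1R2 only H2-K1, H2-D1, B2m and Tap1 are called; the horizontal scales differ between panels.

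The immunoproteasome subunits replace catalytic subunits of the standard proteasome, Psmb8 taking the place of Psmb5 and Psmb9 that of Psmb6. Psmb8 (chr17:34334666-34338399, plus strand, NCBIM37) measured 0.0862 and 0.270 FPKM in B16-F1, where B16-F1R2 had 6.65 and 6.82 while B16-F1R2L had 7.92 and 6.61. The B16-F1 values rest on about 2 and 5 reads, so the size of the difference is uncertain. The log2 fold change was 4.70 (SE 0.31, adjusted p = 5.5e-05) in B16-F1R2 and 4.80 (adjusted p = 4.9e-05) in B16-F1R2L, against 2.72 and 2.81 with a pseudocount of 1 and 5.36 and 5.46 with one of 0.01. Psmb9 (chr17:34318932-34324709, minus strand, NCBIM37) measured 0.367 and 0.257 FPKM in B16-F1, compared with 2.31 and 2.72 in B16-F1R2 and with 2.89 and 4.03 in B16-F1R2L. Its log2 fold change was 2.67 (SE 0.23, adjusted p = 0.00016) and 3.11 (adjusted p = 8.5e-05), against 1.42 and 1.75 with a pseudocount of 1 and 2.99 and 3.43 with one of 0.01. In the NCBIM37 annotation its exons overlap those of Tap1 by 212 bases on the opposite strand, unlike in RefSeq, where the starts lie apart.

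In the libraries where they were highest, both subunits were far below the standard subunits. Psmb8 was 0.0278% and 0.0838% of the FPKM of Psmb5 in the libraries of B16-F1, then 1.63% and 1.78% in those of B16-F1R2 as well as 2.32% and 1.98% in those of B16-F1R2L. Psmb9 was 0.159% and 0.114% of Psmb6 in B16-F1, where B16-F1R2 had 0.92% and 1.18% while B16-F1R2L had 1.35% and 1.97%. The libraries of the variants stood above those of B16-F1 in both pairs, for members that had to be higher to be tested. Psmb10, the remaining immunoproteasome subunit, was well above 1 FPKM in every library. It was 5.96% and 6.09% of Psmb7 in B16-F1, compared with 5.62% and 5.29% in B16-F1R2 and with 3.18% and 3.51% in B16-F1R2L. Psmb10 was not called in B16-F1R2 (log2 fold change -0.09, adjusted p = 0.43) and fell in B16-F1R2L by 0.91 on the log2 scale (adjusted p = 0.00035).

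**Figure D3:**
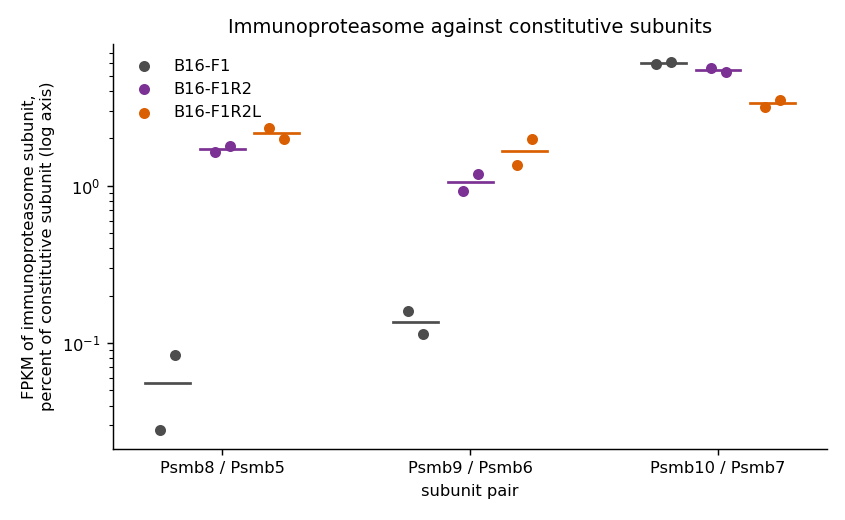
FPKM of each immunoproteasome subunit as a percent (log axis) of the standard subunit it replaces; points are libraries and bars the mean of the 2 libraries of a line. Psmb8 and Psmb9 are under 0.2% in B16-F1 and between 0.92% and 2.32% in the variants, where both had to be higher to be tested, and Psmb10 is at 3.18% to 6.09% and lowest in B16-F1R2L.

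The direct comparison of B16-F1R2L with B16-F1R2 asked whether the line from the lung metastasis differed from the line from the lymph node. In it 4 of the 10 members were higher, none was lower, 5 were not called and H2-T23 was not tested, where 12.1% of all tested genes were called higher and 10.5% lower. The log2 fold changes of the 4 were 0.41 for H2-K1 (SE 0.058, adjusted p = 0.0087), 0.24 for H2-D1 (SE 0.057, adjusted p = 0.030), 0.39 for B2m (SE 0.045, adjusted p = 0.0053) and 0.50 for Tap1 (SE 0.11, adjusted p = 0.029). Both B16-F1R2L libraries lay above both B16-F1R2 libraries for these 4, but also for the uncalled Tap2, Psmb9 and Tapbp and the untested H2-T23. The share of all tested genes that separate in this way was not computed. Tap2 missed the threshold at 0.35 (adjusted p = 0.060), as did Psmb9 at 0.43 (adjusted p = 0.21) and Tapbp at 0.24 (adjusted p = 0.14). Without the filter, H2-T23 was at 0.75 (adjusted p = 0.11). For Psmb8 (0.10, 95% interval -0.64 to 0.84) and Nlrc5 (0.20, 95% interval -0.36 to 0.77) the libraries overlapped, and the intervals leave room for changes as large as those called. When any 1 library was left out, 2 of the members were called, H2-K1 and B2m, while H2-D1 and Tap1 missed the threshold.

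Of the 10 members, 8 lie on chromosome 17 between 34052844 and 36169800 (2.12 Mb, NCBIM37), and this chromosome was low as a whole in the variants. Of its 530 tested genes, 10.9% were called higher and 59.4% lower in B16-F1R2, and 12.1% higher and 59.1% lower in B16-F1R2L. The median log2 fold change was -0.34 in both, and in B16-F1R2 it was the lowest of all chromosomes. Of the 8 members there, 6 were higher and 1 lower in either variant, but 3 of the 6, Tap2, Psmb8 and Psmb9, had to be higher to be tested. Among the 68 other tested genes of the interval, 5 were higher and 47 lower in B16-F1R2, with a median of -0.44. The 5, named after their values were seen, were Cdsn, H2-DMb1, H2-Q4, Slc44a4 and Tnxb, of which 4, all but H2-Q4, were under 1 FPKM in both B16-F1 libraries and had to differ to be tested. Each gene was also taken relative to the median level of the tested genes of its chromosome in the same library. The log2 fold change in B16-F1R2 was then 2.04 for H2-K1, 0.94 for H2-D1, 1.17 for Tap1 and -1.10 for Tapbp, all still called. Between the variants, the same centring took H2-D1 from 0.24 to 0.14 (adjusted p = 0.11), which ended its call. The median log2 fold change of chromosome 17 between the variants was 0.02, the same as over all tested genes. The centring subtracts median levels, not median changes, so the drop of H2-D1 does not measure a shift of the chromosome.

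The tested genes next to the members are given for comparison, and untested genes lie between some of them. Psmb9, Tap1, Psmb8 and Tap2 follow each other on the chromosome, and H2-DMb1, a class II peptide loading gene, is next to Psmb9. These 5 consecutive tested genes all rose, but Tap1 alone of them reached 1 FPKM in B16-F1. H2-DMb1 had a log2 fold change of 3.02 (SE 0.12, adjusted p = 8.8e-06) in B16-F1R2. The next tested genes were Brd2 beyond H2-DMb1 (-0.45) and Gpsm3 beyond Tap2 (-0.54, adjusted p = 0.0018). H2-K1 stood between H2-K2 (0.00, adjusted p = 0.99) and Ring1 (-0.47, adjusted p = 0.0049). H2-D1 stood between Ddx39b (-0.39, adjusted p = 0.00038) and H2-Q4 (0.71, adjusted p = 0.0017). H2-T23 stood between Gnl1 (-0.26, adjusted p = 0.026) and H2-T22 (-0.72, adjusted p = 0.012). Outside chromosome 17, both neighbours of B2m were lower, Spg11 (-0.30, adjusted p = 0.0044) and Sord (-0.68, adjusted p = 3.4e-05), and so was Herpud1 beside Nlrc5 (-0.83, adjusted p = 0.00019), while Cpne2 on its other side was not called (0.08, adjusted p = 0.22).

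**Figure D4:**
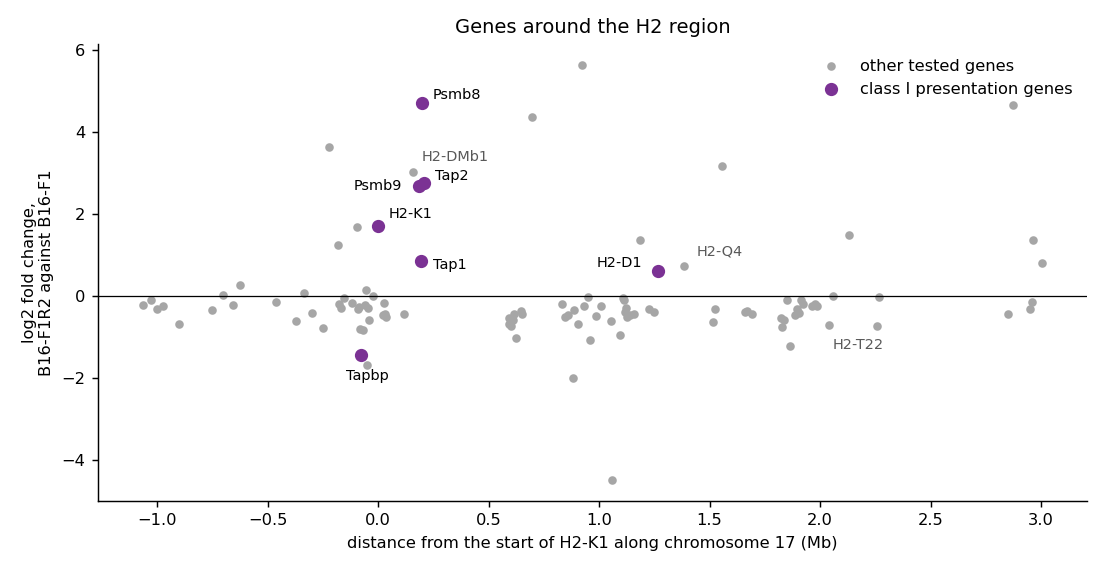
Log2 fold change in B16-F1R2 against B16-F1 of tested genes around the H2 region, against their distance in Mb from the start of H2-K1 on chromosome 17; large purple points are members and grey points other tested genes. Most grey points lie under 0 (47 of the 68 other genes between the outermost members were called lower), while H2-K1, Tap1, Tap2, Psmb8, Psmb9 and H2-D1 lie above 0 and Tapbp under it.

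The rest of the pathway was described from lists, with counts and medians read against those over all tested genes. These were 28.2% higher and 27.2% lower with a median of 0.00 in B16-F1R2, and 29.5% higher and 27.1% lower with a median of 0.02 in B16-F1R2L, against B16-F1. Changes of single listed genes are those in B16-F1R2 against B16-F1 where no other line is named. Among 28 other heavy chain genes, class I-like ones included, 14 were listed at 0 in all libraries and 7 were tested. In B16-F1R2, 3 of these rose (42.9%), 3 fell and the median was 0.39. In B16-F1R2L, 3 rose (42.9%), 2 fell (28.6%) and the median was 0.92. H2-T9 and H2-M3 passed the filter only through the variant lines. H2-M3, a non-classical molecule that presents formylated peptides, measured 0.593 and 0.935 FPKM in B16-F1 but 2.56 and 3.11 in B16-F1R2 (log2 fold change 1.79, SE 0.21), a gene that had to differ to be tested. H2-Q4 rose from 5.16 and 5.04 to 7.61 and 9.35 FPKM. Mr1, which presents vitamin metabolites to MAIT cells, fell by 0.96 on the log2 scale, and H2-T22 fell by 0.72.

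Of 14 peptide trimming and loading genes, 3 rose (21.4%) and 6 fell (42.9%) in B16-F1R2 (median -0.11), and 2 rose (14.3%) and 5 fell (35.7%) in B16-F1R2L (median -0.06). Tapbp was thus not the one loading gene that fell. Calr, the chaperone calreticulin, measured 1180 and 1164 FPKM in the libraries of B16-F1, then 675 and 688 in those of B16-F1R2 as well as 550 and 506 in those of B16-F1R2L. Pdia3, the disulfide isomerase of the loading complex, fell by 0.42 in B16-F1R2, and Erap1, which trims peptides in the endoplasmic reticulum, fell by 0.64. Ganab, a glucosidase that prepares glycans for the chaperones, fell by 0.65, and Thop1, a cytosolic peptidase, rose by 0.43 but was not called in B16-F1R2L (0.14, adjusted p = 0.33). Canx, the membrane chaperone calnexin, was not called (0.02, adjusted p = 0.77), nor was the tapasin relative Tapbpl (0.25, adjusted p = 0.091).

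Among 19 proteasome partners, 8 rose (42.1%) and 1 fell (5.26%) in B16-F1R2 (median 0.12), whereas 4 rose and 4 fell in B16-F1R2L (21.1% each, median -0.07). Psme1 and Psme2, the subunits of the PA28 activator, rose by 0.63 (SE 0.044) and 0.33 (SE 0.053). Psme1 measured 60.2 and 59.0 FPKM in B16-F1, where B16-F1R2 had 94.3 and 89.9 while B16-F1R2L had 98.7 and 95.5. In B16-F1R2 Psmb5 rose by 0.32, Psma1 rose by 0.33, and Psmb6 (0.07) and Psmb7 (0.05) were not called. Psmb5 was not called in B16-F1R2L (0.09, adjusted p = 0.15).

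Of 17 regulators that act at class I promoters 16 were tested, of which 2 rose (12.5%) and 6 fell (37.5%) in B16-F1R2 (median -0.22), where 28.2% of all genes rose and 27.2% fell. In B16-F1R2L the counts were again 2 and 6 (median -0.05). The list also holds the Polycomb repressor genes Ezh2, Eed and Suz12, so its counts do not describe activators alone. The 2 that rose in B16-F1R2, named after their values were seen, were Ezh2 (0.16) and Eed (0.17). Irf1, an interferon-induced activator of class I genes, measured 8.00 and 7.39 FPKM in B16-F1, compared with 4.49 and 4.39 in B16-F1R2 and with 4.30 and 5.03 in B16-F1R2L. Relb fell by 1.66 and Nfkb2 fell by 0.98, both of the NF-kB family, and Nfya, a CCAAT-box factor, fell by 0.85. Irf2 fell by 0.33 in B16-F1R2 and was not called in B16-F1R2L (-0.13, adjusted p = 0.20). The RFX genes Rfx5 (-0.27), Rfxap (0.17) and Rfxank (-0.21) were not called. Ciita, the class II counterpart of Nlrc5, was listed at 0 in all 6 libraries.

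Of 12 genes for interferon receptors and signal relay, 3 rose (25.0%) and 6 fell in B16-F1R2 (median -0.27), and 4 rose (33.3%) and 2 fell (16.7%) in B16-F1R2L (median -0.13). The receptor chain Ifngr2 fell by 0.74, the receptor chain Ifnar1 fell by 0.60, and the kinase Jak2 fell by 0.71. Jak2 was not called in B16-F1R2L (-0.32, adjusted p = 0.05). Those that rose included Irf9, which takes part in the type I interferon signal. Irf9 measured 4.85 and 5.20 FPKM in B16-F1, where B16-F1R2 had 15.3 and 13.1 while B16-F1R2L had 20.3 and 21.7. The lines followed each other without overlap.

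Other interferon-induced genes were mostly higher, like the members. Of 27 listed, 24 were tested, of which 22 rose and 1 fell in B16-F1R2 (median 1.01), and 23 rose and 1 fell in B16-F1R2L (median 1.49). Of the 24, 5 were under 1 FPKM in both B16-F1 libraries, passed the filter only through the variant lines and so had to rise. These were Gbp7, Igtp, Mx1, Mx2 and Rtp4, and they are part of both counts and medians. Of the 19 others, 17 rose and 1 fell in B16-F1R2, whereas 18 rose and 1 fell in B16-F1R2L. The gene that fell, named after its values were seen, was Gbp2, at 2.51 and 2.21 FPKM in B16-F1 but 1.57 and 1.34 in B16-F1R2. Cxcl10, a T cell attractant, measured 8.01 and 8.37 FPKM in B16-F1, compared with 107 and 113 in B16-F1R2 and with 55.9 and 47.1 in B16-F1R2L. The antiviral gene Ifit1 rose by 2.61, and Usp18, a brake on interferon signalling, by 2.45. Rtp4, one of the 5 genes that had to rise, was at 2.45. Against B16-F1R2, 13 of these 24 genes were higher and 2 lower in B16-F1R2L (median 0.40), where 12.1% of all tested genes were higher and 10.5% lower. The 2 lower ones, named after their values were seen, were Cxcl10 and Ifit1.

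**Figure D5:**
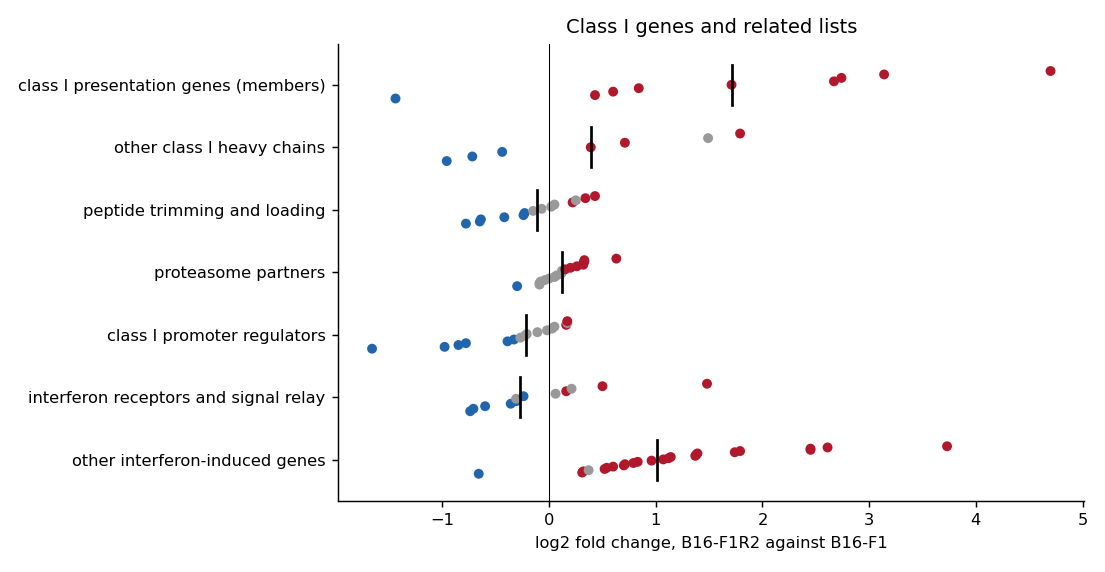
Log2 fold change in B16-F1R2 against B16-F1 for the tested members and the tested genes of 6 related lists; each point is a gene (red called higher, blue called lower, grey not called) and the black bar is the list median. The other interferon-induced genes lie mostly above 0 (22 of 24 called higher, median 1.01, 5 of them under 1 FPKM in B16-F1), while the loading, regulator and receptor lists have medians of -0.11, -0.22 and -0.27.

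Of 10 MHC class II genes, 2 were tested and both rose, H2-DMb1 and Cd74, the invariant chain. Cd74 measured 0.146 and 0.153 FPKM in the libraries of B16-F1, then 1.89 and 3.59 in those of B16-F1R2 as well as 4.04 and 4.35 in those of B16-F1R2L. Both passed the filter only through the variant lines and had to differ. The class II chains H2-Aa, H2-Ab1 and H2-Eb1 stayed under 1 FPKM in every library.

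Markers of other cells were checked, because immune cells carry much class I RNA. Of 9 immune markers 3 were tested and 2 rose in B16-F1R2, Cd79a and Lyz2, which passed the filter only through the variant lines and had to differ. The summed level of all 9 markers was 1.19 to 2.49 FPKM in B16-F1, 14.8 to 15.6 in B16-F1R2 and 20.3 to 20.4 in B16-F1R2L. In B16-F1 most of this was Cd68, and in the variants most of it was Cd79a, part of the B cell receptor. Cd79a was at 0 and 0.0593 FPKM in B16-F1, where B16-F1R2 had 12.7 and 12.4 while B16-F1R2L had 17.1 and 15.9. Lyz2, a myeloid lysozyme, rose by 1.36. Of the 9, Ptprc, a marker of all leukocytes, Cd3e, of T cells, and Itgam, of myeloid cells, were listed at 0 in all libraries. The macrophage gene Csf1r was at 0 in B16-F1 and at 0.0398 to 0.174 FPKM in the variants, and Laptm5 was at 0 and 0.0426 in B16-F1 and at 0.0365 to 0.105 in the variants. Of 4 endothelial markers only Pecam1 was above 0, at 0.752 to 1.26 FPKM in the variants and 0 in B16-F1, so it too passed only through the variants. None of the 5 fibroblast and 3 keratinocyte markers was tested, with sums of at most 0.169 and 0.06 FPKM. Of 7 melanocyte markers 6 fell in B16-F1R2 (median -0.73), among which Tyr fell by 3.70, Dct fell by 1.38, Pmel fell by 1.17 and Tyrp1 fell by 0.73. The part of these marker changes in the class I values was not tested.

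The genes whose levels over the 6 libraries were most like the 2 most abundant members were found by the Euclidean distance of log2 values centred on the B16-F1 mean. For B2m these were Dennd6b, Fmnl2, Fam175a, Tmem136 and Tlr3, at distances of 0.0936 to 0.119. For H2-D1 they were Ifi35, Cntfr, Fkbp5, Trim35 and Dock6, at 0.104 to 0.139.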

How the data were processed

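Polyadenylated RNA of 6 libraries, 2 for each of 3 lines, was prepared with a stranded kit and sequenced in single-end reads of 50 bases. The authors aligned the reads to mm9 (NCBI37) with TopHat 2.0.10, Bowtie 1.0.0 and SAMtools 0.1.1.9 within the nextpresso pipeline after FastQC 0.10.1, allowing 2 mismatches and 20 positions per read. They deposited 1 table of FPKM values per gene and library; the submitters' processing notes name Cuffnorm. The gene annotation and the strand setting were not given in the sources used here. The authors used DESeq2 for their own comparison; FPKM are not counts, so no count test was run here.

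The members and the gene lists were chosen with earlier results of these data known. On log2(FPKM + 0.1), the 11379 genes that reached 1 FPKM or more in 2 or more libraries were fitted with limma 3.58.1 in R 4.3.3 (eBayes with a trend, all 6 libraries, no block), with Benjamini-Hochberg adjustment over all of them and a threshold of 0.05. An exact permutation test of 2 against 2 libraries cannot give a two-sided p below 0.333 and was not used. Named were all members, the 4 genes of each list with the largest change among those called in B16-F1R2, fixed partners of the members, the nearest tested neighbours, and the 5 most similar profiles of the 2 most abundant members; a gene outside this rule is said to have been named after its values were seen, except that further list genes are given as markers or as genes under 1 FPKM in B16-F1 or in all libraries. On simulated data over 11379 genes for B16-F1R2 against B16-F1, the test recovered 79 of 100 genes changed by 1 and 94 of 100 changed by 2 on the log2 scale, with 8 false calls. Only 200 genes were changed in the simulation, far fewer than were called in the data, so these rates need not hold there. Same-numbered libraries of different lines deviated with correlations of 0.0519, -0.102 and 0.0789. They thus shared little deviation over all genes, which cannot tell whether they were prepared in pairs.

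Positions and shared stretches came from the NCBIM37 genome and its annotation, promoters from RefSeq (GRCm38.p6), each kept in its own build. Reads per gene were estimated from the lowest FPKM and transcript length and are approximate; the table gives no read totals, so no counting intervals were computed. Other steps used Python 3.11.15, numpy 2.4.6, pandas 2.3.3, scipy 1.17.1 and matplotlib 3.10.9.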

Additional observations from a re-analysis of the deposited data

Results flagged for a closer look

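For 4 members the difference from B16-F1 was not the same in both variant lines by the direct limma contrast of B16-F1R2L with B16-F1R2. The log2 fold change between the variants was 0.41 for H2-K1, 0.24 for H2-D1, 0.39 for B2m and 0.50 for Tap1. With 2 libraries per line, no library could be tested for standing apart from its group.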

How the results depend on the processing

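Against B16-F1, every call of a tested member held in either variant under each of these alternatives in which the member was tested: other pseudocounts (1 and 0.01), filters, scalings, no trend, only the 4 libraries compared, each library left out, and the replicate block. With a filter of 5 FPKM, 5 members were called higher in each variant, since fewer were tested. A minimum size of 1 on the log2 scale left 5 higher in B16-F1R2 and 6 in B16-F1R2L. In the paired fit with the replicate block, 8 members were higher and 1 lower in either variant and 4 were higher in B16-F1R2L against B16-F1R2, as without it.

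B16-F1R2L against B16-F1R2 was less stable. In place of 4, 2 members were higher without a filter, 0 with that minimum size, and 2 in each fit that left out a library (range 2 to 2). H2-D1 and Tap1 lost their calls in 10 and 9 of the alternatives (highest adjusted p 0.11 for both), and Tap2 gained one in 3. Without B16-F1R2L replicate 1, Psmb8 turned to -0.03 (adjusted p = 0.97; range over left-out libraries -0.03 to 0.23). Over the left-out libraries, the uncalled Psmb9 ranged from 0.20 to 0.67 (lowest without B16-F1R2L replicate 2), Tapbp from 0.12 to 0.35 and Nlrc5 from 0.03 to 0.37 (both lowest without B16-F1R2 replicate 1). The cause was not tested. Rescaling each library to a sum of 1000000 moved the median of all genes to 0.129 and the share of higher among called genes from 53.7% to 81.0%; H2-K1 was then at 0.52 and H2-D1 at 0.35. The same scaling gave 66.6% in B16-F1R2L against B16-F1 in place of 52.1%. Chromosome centring gave 35.0% in place of 53.7%. Over all genes, the minimum size left 819 higher and 328 lower in B16-F1R2 (3207 and 3098 without it), 957 and 259 in B16-F1R2L (3361 and 3086), and 116 and 24 between the variants (1378 and 1190); between the variants, leaving out a library gave 297 to 904 higher and 140 to 991 lower, the fewest without B16-F1R2 replicate 1.

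At these depths Psmb8, Psmb9 and Nlrc5 rest on few reads in B16-F1, which limits the precision of their fold changes.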
